A study of Homo sapiens with 6 samples.

Results

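The kynurenine pathway was followed in PC-3 cells through 10 genes: IDO1, IDO2, TDO2, AFMID, KMO, KYNU, HAAO, QPRT, KYAT1 and KYAT3. PC-3 is a human prostate carcinoma line that grows without androgen. A gene was taken where a probeset of the array carried that gene's symbol alone. All 10 genes were measured, among 18404 genes in all. Each had 1 probeset, so the rule of keeping the brightest probeset chose nothing here. The genes were chosen by their place in the pathway, after IDO1 had been selected on its fall with menthol in these same arrays. IDO1 is therefore given as a description without a test, while the other 9 genes were tested in the fit over all genes.

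The series asked how menthol, the cooling compound of mint, alters gene expression in this line. It held 6 Affymetrix whole-transcript arrays, 3 of cells given menthol dissolved in ethanol and 3 of cells given ethanol alone (vehicle). Both groups received ethanol at 0.1% in medium with 10% fetal bovine serum, and both are cultures of a single cell line. The sources used here give neither the menthol dose nor the exposure time. Nothing in the labels states that replicates came from different cultures, so the p-values reflect a spread between samples that may be technical only. In bulk RNA, fewer cells expressing a gene and less RNA per cell cannot be told apart, and RNA levels say nothing of enzyme activity.

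The kynurenine pathway degrades the amino acid tryptophan. A dioxygenase opens the ring (TDO2 in liver, IDO1 and IDO2 elsewhere), AFMID releases kynurenine, and KMO, KYNU and HAAO carry it on to quinolinate, which QPRT turns into a precursor of NAD. The aminotransferases KYAT1 and KYAT3 divert kynurenine to kynurenic acid. In tumours the pathway is known because local loss of tryptophan and release of kynurenine restrain T cells. IDO1 is strongly induced by interferon-gamma, and kynurenine is a ligand of the aryl hydrocarbon receptor.

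Of the 9 tested genes, KYNU and KYAT1 fell with menthol, KMO rose and 6 did not pass the threshold (limma, adjusted p under 0.05 over 18404 genes). That is 33.3% of the tested members, beside 29.1% of all genes, 14.6% higher and 14.5% lower. The share was thus near that of all genes, and nothing is read from it. The median log2 fold change of the 9 genes was -0.05, against 0.03 for all genes. The groups did not overlap in 5 of the 9 genes (55.6%), beside 45.3% of all genes.

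The promoters of the members that passed, and of KYAT3 as the close relative of KYAT1, are shown to let their base composition be compared. RefSeq windows (GRCh38.p14) running from 250 bases before to 50 after a gene's start were found for 8 of the 10 members. IDO1 and IDO2 were not matched. The 250 bases before the start are given 5′ to 3′ on the gene's strand, with capitals marking matches to the searched motifs. The windows are chr2:142877414-142877663 on the plus strand for KYNU, chr1:241532128-241532377 on the plus strand for KMO, chr9:128882524-128882773 on the minus strand for KYAT1 (the outermost of its 3 windows) and chr1:88992630-88992879 on the minus strand for KYAT3.
KYNU: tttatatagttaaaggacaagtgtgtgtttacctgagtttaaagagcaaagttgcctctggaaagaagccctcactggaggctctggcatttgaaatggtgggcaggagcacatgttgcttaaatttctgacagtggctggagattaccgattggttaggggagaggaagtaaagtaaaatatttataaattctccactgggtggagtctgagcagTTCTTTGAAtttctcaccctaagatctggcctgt
KMO: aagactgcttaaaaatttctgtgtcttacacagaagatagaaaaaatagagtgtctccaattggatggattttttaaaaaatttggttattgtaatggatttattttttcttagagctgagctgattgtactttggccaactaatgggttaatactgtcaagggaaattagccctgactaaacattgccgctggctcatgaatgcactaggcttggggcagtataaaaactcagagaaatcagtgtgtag
KYAT1: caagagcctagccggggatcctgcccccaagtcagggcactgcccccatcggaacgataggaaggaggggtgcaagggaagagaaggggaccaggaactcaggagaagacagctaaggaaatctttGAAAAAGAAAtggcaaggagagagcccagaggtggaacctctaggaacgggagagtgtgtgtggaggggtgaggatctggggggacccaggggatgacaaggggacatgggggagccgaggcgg
KYAT3: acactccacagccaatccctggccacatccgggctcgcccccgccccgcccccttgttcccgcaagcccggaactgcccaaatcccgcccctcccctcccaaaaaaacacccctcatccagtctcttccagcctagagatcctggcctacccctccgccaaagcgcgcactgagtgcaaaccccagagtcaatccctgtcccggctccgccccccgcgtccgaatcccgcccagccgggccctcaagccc

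The KYNU and KMO windows were AT-rich, with 42.3% and 36.7% GC over 300 bases and 1 CpG each, and TDO2 had 41.3% GC and 1 CpG. The median of 34943 windows was 58.7% GC and 14 CpGs. KYAT3 (67.3% GC, 22 CpGs), AFMID (67.7%, 25) and HAAO (74.7%, 37) had CpG-rich windows, and those of KYAT1 ranged from 52.3% GC with 1 CpG to 68.7% with 35. The KYAT1 window shown had 59.7% GC and 6 CpGs, and its CpG-rich window is not shown. The QPRT windows were low in CpGs without being AT-rich (64% GC with 3 CpGs and 56.7% GC with 1 CpG). Low CpG content was found in genes that fell, rose and did not pass. The interferon-gamma activated site was searched as TTCNNNGAA, which reads alike on both strands. It matched at -34 and 6 from the KYNU start, and at -122 in the innermost KYAT1 window, beside 7.66% of all windows with a match. The interferon-stimulated response element, searched on both strands, matched at -124 in the KYAT1 window shown, beside 3.57% of all windows. These shares are per window, and KYAT1 with 3 windows had more room for a match than a gene with 1. The AP-1 letters TGANTCA, on both strands, matched in TDO2 and in the innermost KYAT1 window (7.72% of all windows). The dioxin response element core GCGTG, on both strands, matched in AFMID (36.5% of all windows). These last 2 motifs were added after the data were seen. A match is a description of these letters and shows no binding.

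IDO1, which catalyses the first and rate-limiting step outside the liver, had intensities of 72.1, 75.2 and 77.7 in the vehicle arrays and 22.7, 20.6 and 22.7 in the menthol arrays (probeset 8146092). The lowest vehicle array was thus more than 3 times the highest menthol array, and the groups did not overlap. On the log2 scale the mean went from 6.23 ± 0.05 (SD, n = 3) to 4.46 ± 0.08, a difference of -1.77 ± 0.07 (SE), or 3.41-fold lower. Its mean over all 6 arrays, the lower menthol values included, lay at the 33.7th percentile of all genes. The vehicle mean of 6.23 fell near the top of the next-to-dimmest quartile of brightness (4.75 to 6.47). The menthol mean of 4.46 fell within the range of the dimmest quartile (1.32 to 4.75).

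IDO2, the less active relative of IDO1 and its direct neighbour on the chromosome in the RefSeq annotation, was dim in both groups, at the 9.34th percentile. Its intensities were 10.4, 14.0 and 10.6 with vehicle and 7.41, 9.89 and 14.0 with menthol. The groups overlapped, and the menthol arrays were spread more widely than the vehicle arrays. The log2 difference was -0.20, with a 95% interval from -0.71 to 0.31 (limma adjusted p = 0.54). At so low a signal a fall may not be detectable, so the interval does not settle whether IDO2 changed.

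TDO2, the tryptophan dioxygenase of liver, was dimmer still, at the 1.67th percentile. Its intensities were 5.79, 4.78 and 5.50 with vehicle and 6.33, 4.69 and 5.20 with menthol. The groups overlapped fully, with a log2 difference of 0.01 (95% interval -0.28 to 0.29, adjusted p = 0.972). Signals this low cannot be told from an unexpressed gene, and a change there may not be detectable.

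**Figure D1:**
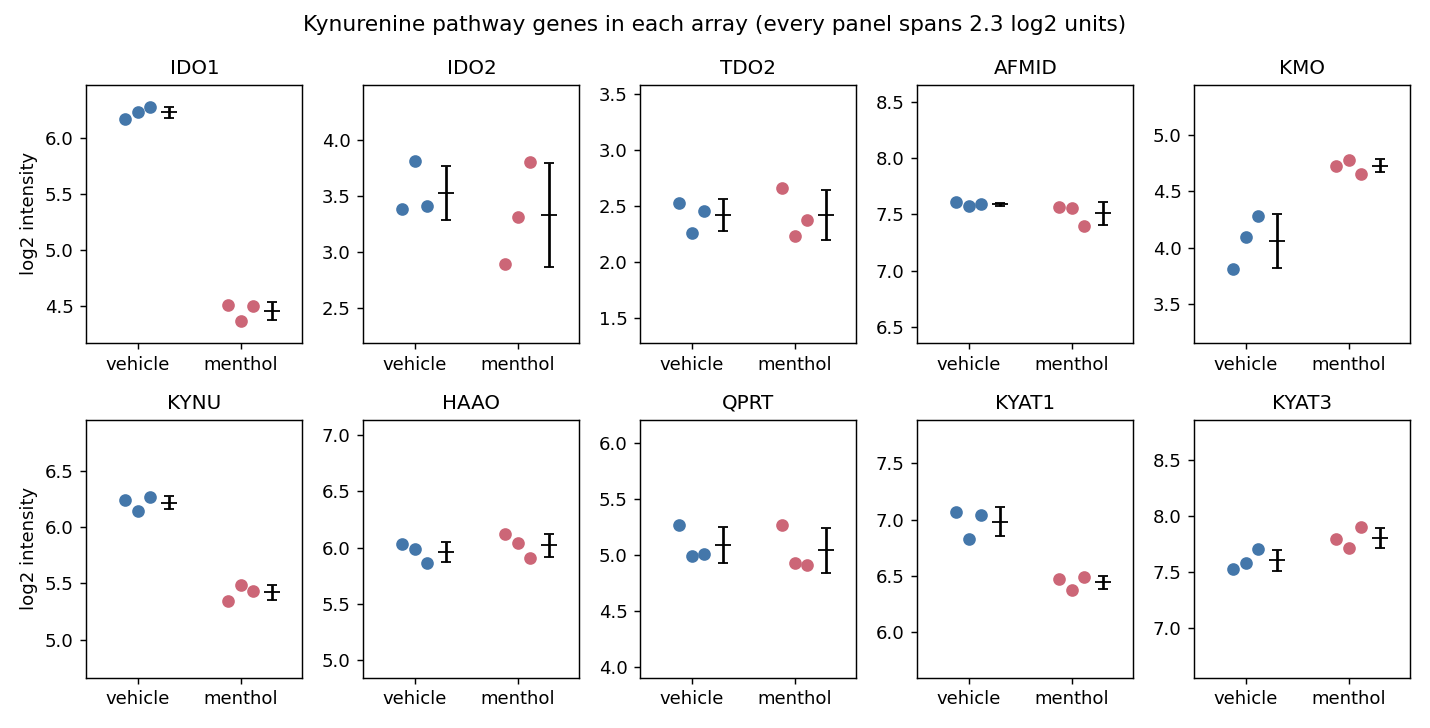
Log2 intensity of the 10 kynurenine pathway genes in the 3 vehicle arrays (blue) and the 3 menthol arrays (red), with the mean and SD of each group beside the points; all panels span the same height. IDO1, KYNU and KYAT1 are lower in all menthol arrays and KMO is higher, while IDO2, TDO2, HAAO and QPRT overlap.

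AFMID, the formamidase that makes kynurenine from the product of the dioxygenases, kept close values. Its intensities were 195, 192 and 193 with vehicle and 190, 189 and 169 with menthol. All menthol arrays were below all vehicle arrays, yet most of the difference came from menthol replicate 3. The log2 difference was -0.08 (95% interval -0.24 to 0.07, adjusted p = 0.391), and it was -0.03 with that array left out.

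KMO, the flavin enzyme of the outer mitochondrial membrane that hydroxylates kynurenine, was the member that rose. Its intensities were 14.0, 17.1 and 19.4 with vehicle and 26.6, 27.5 and 25.4 with menthol (probeset 7910950). The menthol arrays lay close together and above all vehicle arrays, which varied more. On the log2 scale the mean went from 4.06 ± 0.24 (SD, n = 3) to 4.73 ± 0.06, a rise of 0.67 ± 0.11 (SE), or 1.59-fold (limma adjusted p = 0.00442; range 0.000786 to 0.0182 over the alternatives). KMO was dim, at the 20.2nd percentile, and a low offset matters there: on the log2(intensity + 16) scale the rise was 0.37. Its vehicle signal may not be told from that of an unexpressed gene. Among the dimmest quartile of genes 10.3% rose and 1.91% fell, and the median change there was 0.10. Under quantile normalization the median of that quartile was 0.00 and KMO rose by 0.58 (adjusted p = 0.0124). Under cyclic loess normalization these were 0.00 and 0.58 (adjusted p = 0.0134).

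KYNU, the kynureninase that cleaves 3-hydroxykynurenine with vitamin B6 as cofactor, fell. Its intensities were 75.4, 71.2 and 77.1 with vehicle and 40.6, 44.8 and 43.1 with menthol (probeset 8045539). The 2 groups were far apart relative to their spread. The log2 mean went from 6.22 ± 0.06 (SD, n = 3) to 5.42 ± 0.07, a difference of -0.80 ± 0.07 (SE), or 1.74-fold lower (limma adjusted p = 0.000206; range 5.15e-06 to 0.00239 over the alternatives). Of the 4601 genes in its quartile of brightness 414 fell. The fall of IDO1 exceeded that of KYNU by 0.97 on the log2 scale, given here as a description.

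HAAO, the dioxygenase that yields the precursor of quinolinate, had intensities of 65.4, 63.8 and 58.1 with vehicle and 69.5, 65.7 and 60.3 with menthol. These overlapped, with a log2 difference of 0.06 (95% interval -0.12 to 0.24, limma adjusted p = 0.604). QPRT, which commits quinolinate to NAD synthesis, had 38.7, 31.7 and 32.2 with vehicle and 38.6, 30.6 and 30.1 with menthol. In QPRT replicate 1 was the highest array of each group, and the groups overlapped (log2 difference -0.05, 95% interval -0.33 to 0.23, adjusted p = 0.785). The intervals of both genes leave out a change as large as that of KYNU.

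Of the aminotransferase genes, KYAT1 fell and KYAT3 did not pass. KYAT1, also known as a cysteine conjugate beta-lyase, had intensities of 134, 114 and 131 with vehicle and 88.5, 82.6 and 89.8 with menthol (probeset 8164496). Every menthol array was below every vehicle array. The log2 mean fell by 0.54 ± 0.08 (SE), from 6.98 ± 0.13 (SD, n = 3) to 6.44 ± 0.06, or 1.45-fold (limma adjusted p = 0.0024; range 0.000101 to 0.0118 over the alternatives). Among genes in its quartile of brightness 20.2% fell.

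KYAT3 had intensities of 184, 192 and 208 with vehicle and 221, 209 and 238 with menthol, a narrow gap between groups that did not overlap. The log2 difference was 0.20 ± 0.08 (SE) and did not pass the threshold (limma adjusted p = 0.095; range 0.0293 to 0.251 over the alternatives). It passed under 2 alternatives, the trended robust prior (adjusted p = 0.0429) and the omission of genes below the median (adjusted p = 0.0293). The KYAT1 change was 0.73 log2 units below the KYAT3 change (exact permutation p = 0.1, two-sided, the smallest that 3 against 3 arrays can give, so no threshold of 0.05 could be met). This pair was chosen after its values were seen.

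**Figure D2:**
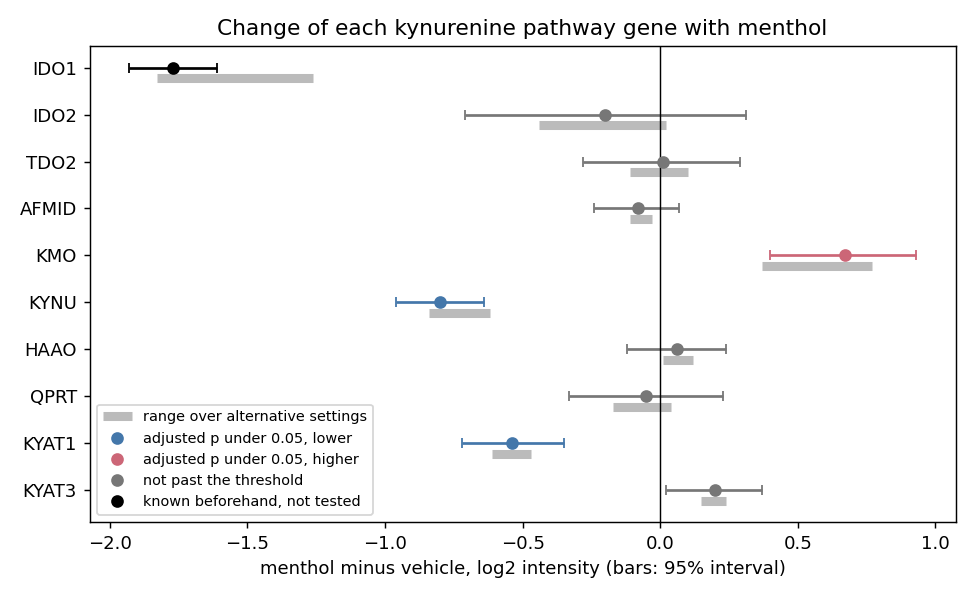
Menthol minus vehicle in log2 intensity for each gene, in pathway order, with 95% intervals from limma; grey bars give the range of the estimate over the alternative settings. KYNU (-0.80) and KYAT1 (-0.54) lie to the left, KMO (0.67) to the right, and IDO1 (-1.77, black, known beforehand and not tested) farthest from 0.

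**Figure D3:**
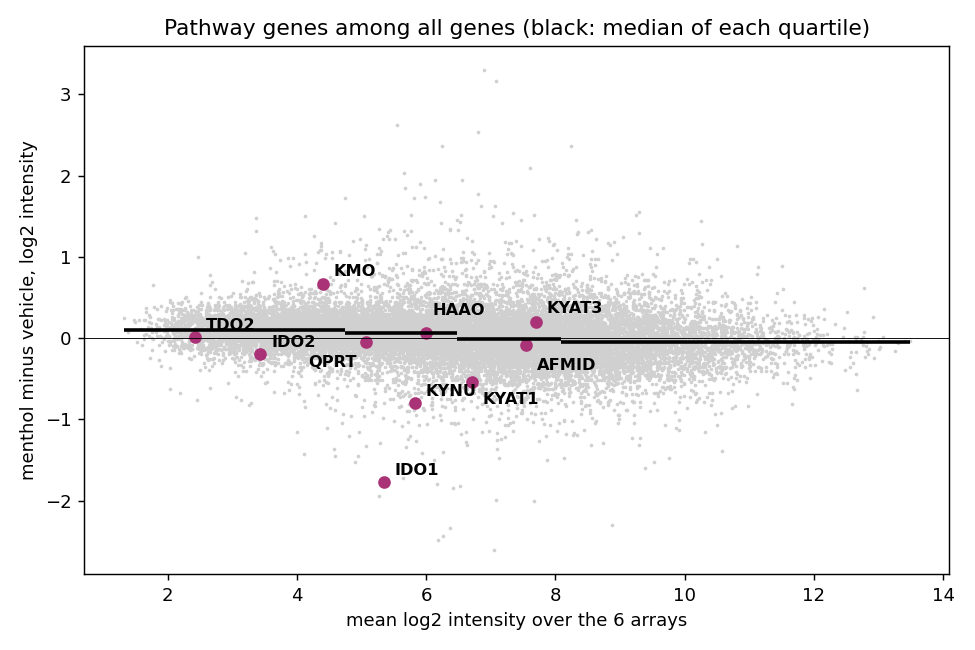
Menthol minus vehicle in log2 intensity against mean log2 intensity over the 6 arrays for 18404 genes (grey) with the 10 pathway genes marked; black lines are the median change in each quartile of brightness. The medians run from 0.10 in the dimmest quartile through 0.06 and -0.01 to -0.05 in the brightest.

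Of 6 genes for other aminotransferases and side branches of kynurenine breakdown, 1 fell and 0 rose (16.7%, beside 29.1% of all genes). GCDH, a glutaryl-CoA dehydrogenase further down tryptophan and lysine breakdown, was at -0.24 ± 0.07 (limma adjusted p = 0.0284). It kept the call without vehicle replicate 2 (adjusted p = 0.0309) and lost it when any other single array was left out (up to 0.101). AADAT, a further kynurenine aminotransferase, was at 0.10 ± 0.07 (adjusted p = 0.366) and ACMSD, which diverts the pathway away from quinolinate, at -0.06 ± 0.08 (adjusted p = 0.619). Both were chosen after their values were seen.

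Of 9 genes for tryptophan and kynurenine transport, 3 fell and 0 rose, which at 33.3% was near the 29.1% of all genes. The number that fell was 5 under the trended robust prior and 1 at a threshold of 0.01, and 1 rose with array weights. SLC16A10, a transporter of aromatic amino acids, fell by 0.67 ± 0.15 on the log2 scale, from 6.57 to 5.90 (limma adjusted p = 0.0119). The glutamine carrier SLC1A5 fell by 0.49 ± 0.06 (adjusted p = 0.00137), but a second, dimmer probeset of it was at -0.03 ± 0.12. Averaged over both probesets, SLC1A5 was at -0.26 and did not pass (adjusted p = 0.0654). SLC7A11, the cystine antiporter, was at -0.29 ± 0.08 (adjusted p = 0.0269). It lost the call when any single array other than menthol replicate 3 was left out (adjusted p up to 0.0868, and 0.00979 without that array). SLC7A5, the main carrier of tryptophan into tumour cells, was at -0.17 ± 0.06 and did not pass (adjusted p = 0.0641, chosen after its value was seen).

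Of 8 measured genes for other uses of tryptophan, 1 fell and 0 rose (12.5%, beside 29.1% of all genes). MAOA, which degrades serotonin, was at -0.40 ± 0.11 (limma adjusted p = 0.0322). That call was lost without vehicle replicate 1, 2 or 3 (adjusted p = 0.0818, 0.0644 and 0.0908). The tryptophan tRNA ligase WARS1, another gene induced by interferon-gamma, was at 0.04 ± 0.06 (adjusted p = 0.653), and the tryptophan hydroxylase TPH1, at 2.55 in both groups, was near the bottom of the range. Both were chosen after their values were seen.

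Of 14 genes of NAD synthesis and use, 3 fell and 1 rose (28.6%, beside 29.1% of all genes). NNMT, which methylates nicotinamide, rose by 0.47 ± 0.06 on the log2 scale (limma adjusted p = 0.0015). NADK2, the mitochondrial NAD kinase, fell by 0.35 ± 0.06 (adjusted p = 0.00381) and NMNAT2 by 0.32 ± 0.07 (adjusted p = 0.0112). PARP1, a major consumer of NAD, was at -0.22 ± 0.07 (adjusted p = 0.039), a call lost under quantile normalization (0.0866), cyclic loess normalization (0.0923) and the omission of any single array other than menthol replicate 3 (up to 0.118). NAMPT, the salvage enzyme, was uncertain: its brighter probeset was at 0.00 ± 0.08, its other probeset at -0.30 ± 0.07 (adjusted p = 0.0123 over all probesets). NAMPT was chosen after its values were seen. Of 3 measured genes of vitamin B6 and flavin supply, the pyridoxal phosphate binding gene PLPBP was at 0.21 ± 0.06 (adjusted p = 0.0341), a call lost when any of the 6 arrays was left out (0.0547 to 0.109).

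Among the signals known to control IDO1, 9 of 24 measured genes fell and 3 rose (50%, beside 29.1% of all genes). The list was written with earlier results of these data known, so nothing is read from this share. The listed genes lay in every quartile of brightness, 2 of them in the dimmest. Of all genes in the brightest quartile 17.2% rose and 26.9% fell, and in the next quartile 17.5% rose and 20.2% fell. PTGS2, the inducible prostaglandin synthase, fell by 1.47 ± 0.10 on the log2 scale, from 7.86 to 6.39. JAK1, a kinase of the interferon-gamma receptor, fell by 0.71 ± 0.06, from 10.34 to 9.63 (limma adjusted p = 0.000195). The interferon regulatory factor IRF2 fell by 0.54 ± 0.07 (adjusted p = 0.00116), and IL6 rose by 1.33 ± 0.10. The receptor chain IFNGR2 fell by 0.39 ± 0.06 (adjusted p = 0.00219), while IFNGR1 was at -0.15 ± 0.09 and the factor IRF1 at 0.07 ± 0.11, neither past the threshold (adjusted p = 0.266 and 0.66). These last 3 genes were chosen after their values were seen.

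Of 17 other measured genes induced by interferon-gamma 3 rose, 1 fell and 13 did not pass (23.5% called, beside 29.1% of all genes). Of these 17 genes 8 lay in the dimmest quartile, where 10.3% of all genes rose and 1.91% fell. A fall of such dim genes may not be detectable. Their median log2 fold change was 0.07, against 0.03 for all genes. The number that fell was 2 or 3 under several alternatives, among them quantile normalization (2), the trended robust prior (3) and the log2(intensity + 16) scale (3), and 2 without vehicle replicate 1. CD274, which encodes the PD-1 ligand PD-L1, rose by 1.94 ± 0.09 and the guanylate-binding protein gene GBP3 by 0.82 ± 0.06 (limma adjusted p = 0.000161). GBP5, another of that family, fell by 0.58 ± 0.10 from a low level of 4.69, at the 20.3rd percentile (adjusted p = 0.00369). The chemokine gene CXCL10 was at 0.30 ± 0.08 from a very low level of 2.48 (adjusted p = 0.0324). That call was lost under 5 alternatives, quantile normalization among them (0.156), and on leaving out any single array other than vehicle replicate 3 (up to 0.106).

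Of 15 measured receptors and targets of kynurenine metabolites 5 rose and 2 fell (46.7%, beside 29.1% of all genes). This list too was written with earlier results of these data known, so nothing is read from its share. The aryl hydrocarbon receptor gene AHR, which stands in the list of IDO1 signals too and was chosen after its value was seen, fell by 0.35 ± 0.07 on the log2 scale (limma adjusted p = 0.0081). Of the genes known as its targets, CYP1A2 was at -0.06 ± 0.10 (adjusted p = 0.7, chosen after its value was seen), while 4 others rose: NQO1 by 0.64 ± 0.07 (adjusted p = 0.000586), CYP1B1 by 0.52 ± 0.07 (0.00114), CYP1A1 by 0.45 ± 0.08 (0.00421) and TIPARP by 0.37 ± 0.06 (0.00486). CYP1A1 was dim, at the 21.3rd percentile, and its rise was 0.36 under quantile normalization and 0.26 on the log2(intensity + 16) scale. GPR35, a receptor of kynurenic acid, was at -0.03 ± 0.10 (adjusted p = 0.858). HCAR3, another receptor on the list and the remaining gene that rose, was at 0.33 ± 0.10 from a low level of 3.62 (adjusted p = 0.0418). Under quantile normalization 4 listed genes rose. GPR35 and HCAR3 were chosen after their values were seen.

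**Figure D4:**
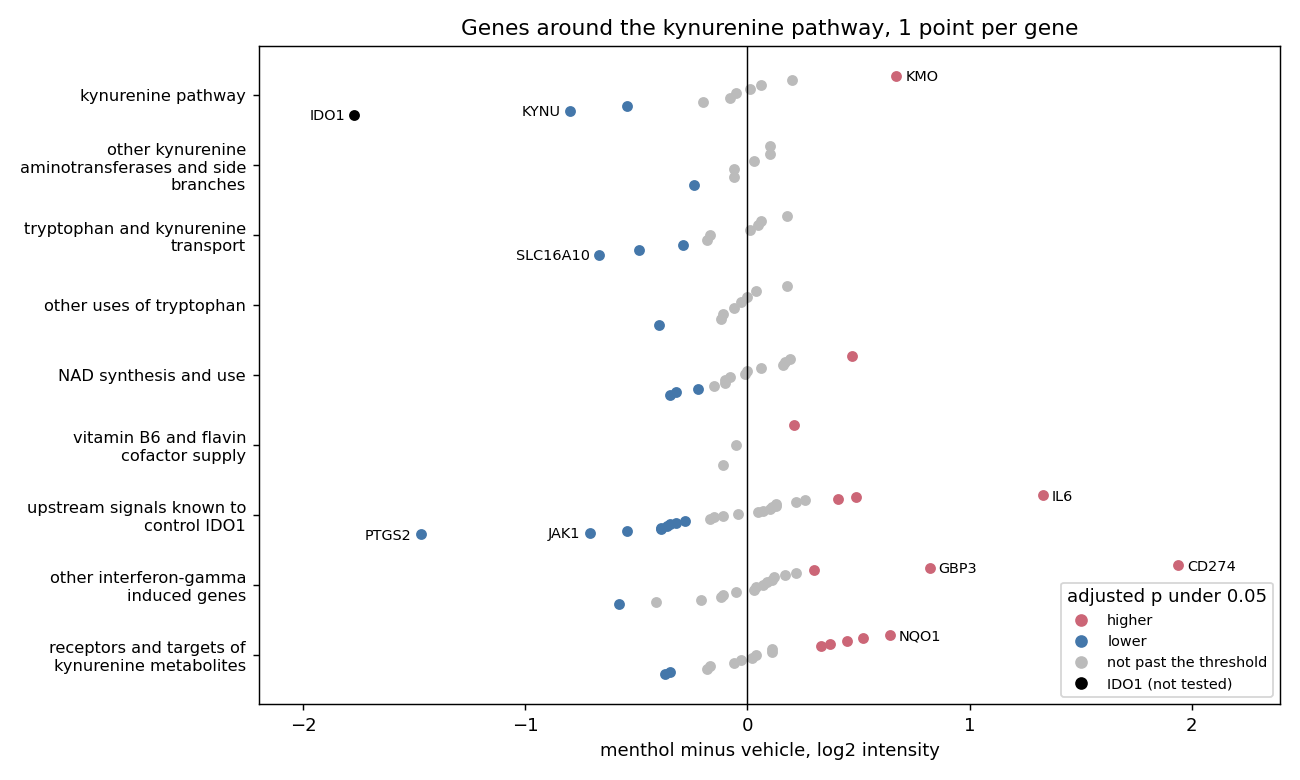
Menthol minus vehicle in log2 intensity for each measured gene of the kynurenine pathway and of 8 related lists, 1 point per gene; red and blue points passed an adjusted p of 0.05 in limma, and names are given at 0.6 or more in size. PTGS2 (-1.47) and JAK1 (-0.71) lie on the side of IDO1, IL6 (1.33) and CD274 (1.94) on the other.

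The profile most like that of IDO1, by the root mean square difference of centred log2 values over the 6 arrays, was that of the laminin chain LAMA4 (0.08), followed by PDE10A (0.11), FEZ1 (0.11), SERPINB3 (0.14) and CST1 (0.15). SERPINB3 shares sequence with a near-identical neighbour, so its value is uncertain. For KYNU, the tested member with the largest change, these were PDK3 (0.03), CTH (0.03), HOXB13 (0.04), ERLIN1 (0.04) and BNIP3 (0.05), with changes between -0.80 and -0.76. The measure mainly picks genes with a group difference of the same size.

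The arrays carried the markers of an epithelial line, and some markers of other cell types also gave signal. CD68 lay at the 87.2nd percentile, the fibroblast collagen COL1A1 at the 70.7th and the lymphocyte gene NKG7 at the 47.2nd. Keratin KRT8 lay at the 99th percentile, and the androgen-driven genes KLK3 and KLK2 at the 32.2nd and 33.6th. All 6 epithelial markers rose with menthol, with a summed intensity of 6480 to 6840 in vehicle and 11000 to 11400 in menthol arrays. Of all genes 14.6% passed as higher and 14.5% as lower, the shares to set beside each marker count given here. Of 8 markers of macrophages and dendritic cells, which can express IDO1, 2 passed as higher (CD68 and CD86) and 0 as lower, with a summed intensity of 584 to 625 with vehicle and 692 to 734 with menthol. CD68, which many cell types express, carried most of that sum. The other 7 markers summed to 113 to 118 with vehicle and 120 to 127 with menthol. The leukocyte gene PTPRC was at 2.60 and 2.69 on the log2 scale, at the 2.96th percentile. Of 5 lymphocyte markers 0 passed in limma (summed intensity 129 to 135 and 137 to 142). Of 5 liver markers ALB passed as higher (130 to 132 and 129 to 148), and of 6 fibroblast markers DCN and COL1A2 passed as higher and COL3A1 as lower (393 to 415 and 342 to 370). The calls on CD86, ALB, DCN and COL1A2 were lost under quantile normalization. Those 4 and CD68 were also lost on leaving out at least 1 array, with limma adjusted p up to 0.119 for CD86, 0.0674 for ALB, 0.0764 for DCN, 0.122 for COL1A2 and 0.0564 for CD68. The part of these markers in the pathway values was not tested.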

How the data were processed

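The 6 arrays, 3 menthol and 3 vehicle, were each hybridised with material from 300 ng of total RNA of PC-3 cells. The authors deposited 1 table of intensity values for 32321 probesets, made with RMA per the submitters' processing notes; the sources used here give no software version. The deposited values ran from 1.57 to 14835, a linear scale, so log2 was taken. Array medians were 47.4 to 49.1. Precision is limited by the number of arrays.

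The platform annotation named the probesets: 19158 had 1 symbol, 1388 several and 11775 none here. Of the single-symbol probesets, 19128 matched RefSeq by Entrez identifier, and 0 symbols changed. The brightest probeset per gene left 18404 genes. The comparison used limma 3.58.1 under R 4.3.3 (lmFit, eBayes, two-sided, Benjamini-Hochberg over all genes, threshold 0.05), and the fit was tested on simulated data. The protein identities planned in the design were not computed. Figures and motif searches used Python 3.11.15.

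The members, lists, tests and alternatives were chosen with earlier results of these data known. By the rule for named genes the text names all members, per list up to 4 called genes by size of change (where none was called, up to 2 by smallest p), and the 5 genes most alike to IDO1 and KYNU. From the marker lists single genes were named only to check the cell type. Where a gene lies outside the rule, the text says so. Some listed genes were not analysed here.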

Additional observations from a re-analysis of the deposited data

How the results depend on the processing

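KMO, KYNU and KYAT1 kept their direction and stayed past the threshold under every alternative in which they were tested: quantile, equal-median and cyclic loess normalization, log2(intensity + 16), averaged or separate probesets, both filters on dim genes, a trended robust prior, array weights, a threshold of 0.01 and leaving out any single array. Their ranges were 0.37 to 0.77, -0.84 to -0.62 and -0.61 to -0.47 in log2 units, and IDO1, not tested, ran from -1.83 to -1.26. Counts of members called leave out IDO1. IDO2, TDO2, AFMID, HAAO and QPRT did not pass under any alternative. Without genes below the 25th percentile, 0 members passed as higher, because KMO was no longer tested. Without genes below the median, 1 passed as lower, because only 3 members were tested. Under the trended robust prior 2 passed as higher, KMO and KYAT3. Omitting each array in turn gave 1 higher and 2 lower each time. With the replicate number as a block, 1 tested member was higher and 2 were lower. Same-numbered arrays showed little shared deviation (correlations 0.01, -0.01 and 0.09), which does not settle whether they were handled in pairs. Low signal limits what can be said of IDO2 and TDO2, and of the size of the KMO rise.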
